A study of Mus musculus with 4 samples.

Results

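The genes described here are long intergenic noncoding RNAs (lincRNAs): RNAs that the annotation lists as noncoding and intergenic, although the spans of some overlap a coding gene and RefSeq lists some as coding. A gene was included when each of its annotated transcripts had the type lincRNA and its mean level over 4 libraries was at least 5 TPM (a read count divided by transcript length and scaled to the same total in every library). Gm26917, Gm42418, Gm15564, AY036118, Peg13, Kcnq1ot1, Gas5 and genes whose symbol starts with Snhg were left out by name, and 5 of these had reached the threshold. This left 62 of 5844 lincRNA genes and of 55536 mouse genes, while 4520 lincRNA genes were listed at 0 in each library. Because the level chose the members, their levels are given as a description, with no test.

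The RNA came from T cells of the spleen, described by the antigen CD3, of male B6CASTF1/J mice (C57BL/6 mother, CAST/EiJ father) aged 66 days. The 4 biological replicates of this single group, numbered as libraries 1 to 4, were each made from 300 ng of total RNA with synthetic spike-in RNAs and a kit that keeps the strand. All animals carried the same F1 genotype, no treatment was given in the labels, and no second condition was compared. The labels give all replicates the same donor identifier and do not say whether each is a separate animal, so SDs and p-values cover the spread between these samples, which may be technical.

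Long noncoding RNAs act as RNA molecules, or through the act of their transcription. Some build or populate nuclear bodies: Neat1 is the scaffold of paraspeckles and Malat1 gathers in nuclear speckles, where splicing factors are stored. Others bind a protein or a microRNA in many copies and so limit its supply, give rise to a microRNA when their primary transcript is cut by Drosha, or sit beside a coding gene and influence it.

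The libraries held 14540725 to 17280908 expected counts on mouse genes, and spike-ins took 0.299% to 0.346% of counts. All 20 pan-T markers were found and tested, and their summed level was 4632 to 4788 TPM. Libraries differed in RNA of other cell types. The 15 B cell markers summed to 392 TPM in library 4 and to 175 to 187 TPM in libraries 1 to 3, with Vpreb3 at 0 in libraries 2 and 3. The 10 of 11 erythroid markers that were found summed to 636 TPM in library 4 and to 17.4 to 64.3 TPM in the others, with Slc4a1 at 0 in libraries 1 and 3. The 12 neutrophil markers reached 38.1 TPM in library 2 and 11.7 to 13.9 TPM elsewhere, with Elane and Mmp8 at 0 in library 3. No other marker of these lists was at 0 in any library.

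The members took 2.07% ± 0.0252 of the counts of mouse genes (SD, n = 4). Of the members' counts, 86.1% ± 0.457 fell on Malat1 alone, and the other members together held 0.287% ± 0.0108 of all counts (SD, n = 4 each). By level, 6 members had a mean of 100 TPM or more, 14 lay between 20 and 100, 12 between 10 and 20, and 30 between 5 and 10, with a median of 10.97 TPM. Each library was at or above 5 TPM for 47 members. The order differed when counted reads rather than TPM were ranked, because TPM divides by length: Gm44174, with a transcript of 141 bases, ranked 11 by TPM and 61 by counts (26.5 counts on average), whereas AI504432, with a transcript of 5569 bases, ranked 28 by TPM and 10 by counts (1026 counts).

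**Figure D1:**
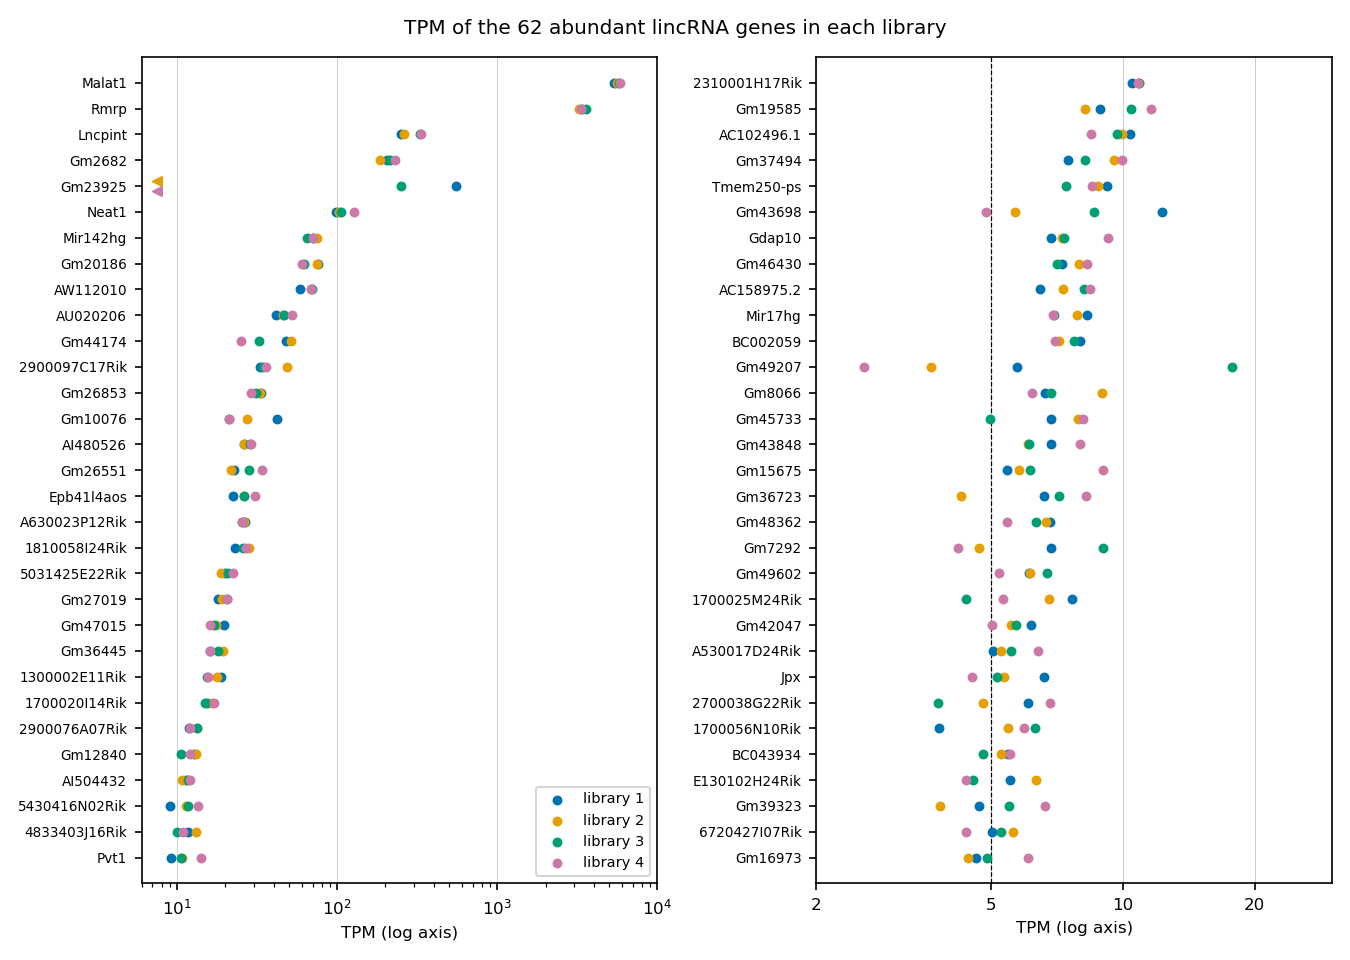
TPM (log axis) of each of the 62 members in libraries 1 to 4, ordered by mean, with the higher-ranked members on the left and the threshold of 5 TPM as a dashed line on the right. Triangles at the left edge mark libraries 2 and 4, in which Gm23925 was listed at 0; points of most other members lie close together, while Gm49207 ranges from 2.57 to 17.7 TPM.

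Malat1 was the most abundant member. It lies on the minus strand of chromosome 19 from 5795690 to 5802672 (mm10) and stood at 5387, 5574, 5773 and 5834 TPM in libraries 1 to 4, a mean of 5642 ± 203 (SD, n = 4), rank 13 among all mouse genes. The highest library was only 1.08 times the lowest. Neat1 lies close by on the same strand, from 5824708 to 5845478, and stood at 97.5, 102, 105 and 127 TPM, a mean of 108 ± 13.2 (SD, n = 4). Library 4 was the highest for both RNAs, but neither varied beyond the trend for genes of its level (edgeR goodness-of-fit test, adjusted p = 1 for each).

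The ends of Malat1 and of the long Neat1 form are unusual. Both are cut by RNase P at a tRNA-like structure and carry no ordinary poly(A) tail; a U-rich stretch and an A-rich end fold into a triple helix that protects them. The last bases of the long Neat1 form recur in Malat1, and the 100 bases up to this point in each RNA share 3 words of at least 10 bases: TTTCTTTTCCTGA, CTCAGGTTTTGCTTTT and AAAAAGCAAAA. None of these contains another. On the transcript strand, the first occurs in 34, the second in 2 and the third in 551 of 68537 annotated transcripts of at least 1000 bases, and all of them within 100 bases in 2 (0.00292%), 1 of Malat1 and 1 of Neat1. The words were taken from these RNAs, so the counts describe them and test nothing. They are shown in capitals at chr19:5795982-5796081 (mm10, minus strand) for Malat1 and chr19:5824708-5824807 (mm10, minus strand) for Neat1. The Malat1 stretch covers positions 6592 to 6691 of a transcript of 6983 bases, so the annotated transcript runs on past it, while the Neat1 stretch is the last 100 bases of its transcript.
Malat1: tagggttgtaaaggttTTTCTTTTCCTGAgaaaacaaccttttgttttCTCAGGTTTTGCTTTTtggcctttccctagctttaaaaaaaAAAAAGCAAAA
Neat1: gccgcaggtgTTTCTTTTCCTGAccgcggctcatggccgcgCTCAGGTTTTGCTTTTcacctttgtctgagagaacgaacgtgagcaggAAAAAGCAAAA

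Neat1 has a short form that ends early and a long form that holds this tail and is required for paraspeckles. The short form Neat1-202 (3004 bases) held 84.9% ± 1.93 of the gene's TPM and the long form Neat1-201 (20771 bases) 9.59% ± 0.419 (SD, n = 4 each). The long form stood at 9.81, 9.44, 10.3 and 11.7 TPM, against 80.8, 86.9, 88.6 and 111 TPM for the short form. The short form was higher in each library, and the second deposited quantification gave 77.9% and 9.57% for the same forms. Short entries of another type inside the 5-prime part of Neat1 were also assigned reads. Gm27505, at 110 bases of chromosome 19 from 5844638 to 5844747, was listed at 111, 174, 236 and 259 TPM, and at 0 in the second quantification. Which of these reads belong to Neat1 was not tested.

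For Malat1 the split between forms depended on the quantification. The unspliced Malat1-201 held 40.7% ± 0.772 of the gene's TPM, and the spliced forms of 556 and 656 bases, Malat1-202 and Malat1-204, held 31.4% ± 0.505 and 24.3% ± 0.289 (SD, n = 4 each). In the second quantification, which used 1 read file per library, Malat1-201 held 71.1%, Malat1-202 16.9% and Malat1-204 11.96%. The level of Malat1-201 itself was 2296 ± 54.0 TPM in the first and 2861 ± 130 TPM in the second (SD, n = 4 each).

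Genes for proteins of the corresponding nuclear bodies were all at 1 TPM or more. Over all genes tested, 1.4% were called variable between libraries (adjusted p under 0.05) and 4.6% had an unadjusted p under 0.05, so a list of this size holds few calls at the background rate. All 16 listed paraspeckle protein genes were tested and 0 were called by edgeR, with 2 at an unadjusted p under 0.05; their median was 70.3 TPM, and the essential paraspeckle proteins Nono and Sfpq stood at 90.3 ± 1.89 and 300 ± 19.5 TPM (SD, n = 4 each). Of 20 nuclear speckle protein genes, 0 were called and 0 had an unadjusted p under 0.05; the speckle scaffold genes Son and Srrm2 stood at 158 ± 2.01 and 516 ± 23.4 TPM. Of 16 genes for nuclear RNA 3-prime processing and decay, 0 were called and 1 had an unadjusted p under 0.05. Elac2, whose product cuts the other side of the tRNA-like structure, stood at 9.32 ± 0.399 TPM (SD, n = 4).

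Rmrp, the RNA of ribonuclease MRP, which cuts precursors of ribosomal RNA, entered because the annotation holds it as both a lincRNA and a ribozyme. The lincRNA entry spans 281 bases of chromosome 4 (43492783 to 43493063, minus strand), and the ribozyme entry of 271 bases begins at its position 6, so 96.0% of its 31-base words also occur in the ribozyme entry. The lincRNA entry was listed at 3389, 3222, 3555 and 3334 TPM (mean 3375 ± 139, SD, n = 4) and the ribozyme entry at 14868, 13936, 14351 and 14498 TPM. The lincRNA entry thus received 18.97% ± 0.594 of the pair's TPM in a near constant split. In the second quantification the lincRNA entry was listed at 9847, 6339, 10441 and 5094 TPM and the ribozyme entry at 0.00222 TPM on average. The level of Rmrp is therefore the sum of both entries, and the share shown for the lincRNA entry cannot be told apart from the assignment of reads.

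Gm23925 showed the same matter in a more extreme form. Its lincRNA entry was listed at 548, 0, 248 and 0 TPM in libraries 1 to 4, and an entry of the same name and the type snoRNA (a small nucleolar RNA) at 0, 530, 279 and 264 TPM. Both lie inside Snhg17 on chromosome 2 and have 132 bases, and they are offset by 1 base. Of the 31-base words of the lincRNA entry, 100% also occur in Snhg17. That gene stood at 20.2 TPM in the first and 38.8 TPM in the second quantification. Which of the reads belong to Snhg17 was not tested. The lincRNA entry covers chr2:158359797-158359928 and the snoRNA entry chr2:158359798-158359929 (mm10, minus strand); they are shown with the base that the other entry lacks in capitals.
Gm23925 lincRNA entry: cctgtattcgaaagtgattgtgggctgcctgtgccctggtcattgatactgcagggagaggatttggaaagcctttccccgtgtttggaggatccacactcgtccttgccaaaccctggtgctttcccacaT
Gm23925 snoRNA entry: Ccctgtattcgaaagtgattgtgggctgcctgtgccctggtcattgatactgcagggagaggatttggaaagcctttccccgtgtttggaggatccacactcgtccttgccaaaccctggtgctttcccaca

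The sum of both Gm23925 entries was 548, 530, 527 and 264 TPM, so the first 3 libraries were close together and library 4 was lower. In reads, the pair held 18.3, 17.4, 17.2 and 8.49 CPM. A value of 0 for either entry alone was therefore not read as absence of the RNA, since the twin entry held reads in the same library. Gm23925 did not pass the filter of the test, and the second quantification listed both entries at 0 in each library.

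**Figure D2:**
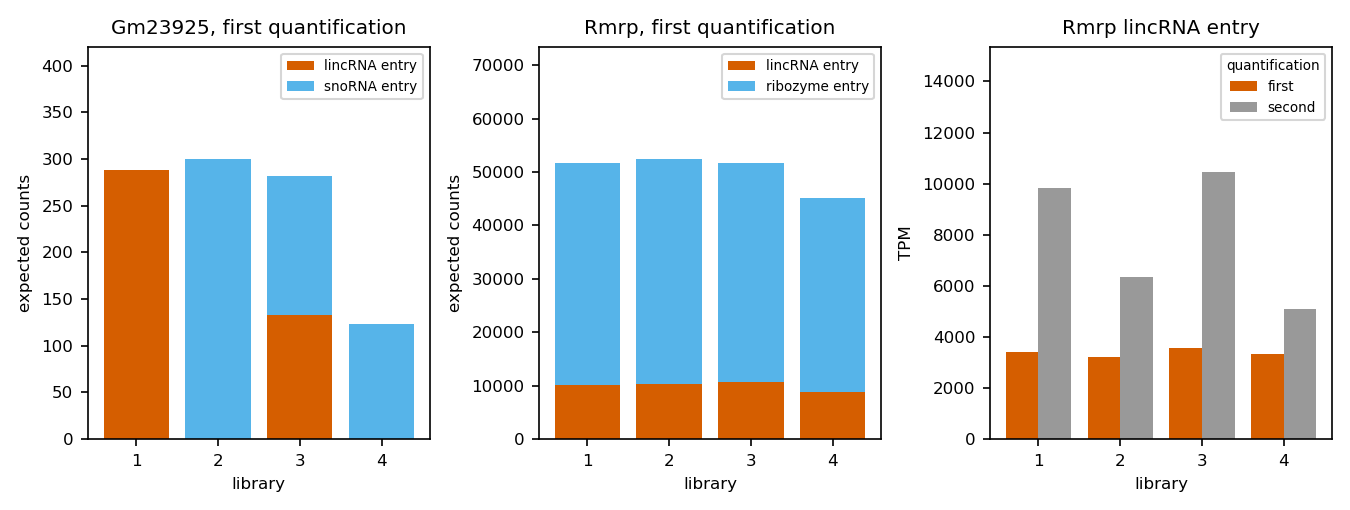
Expected counts per library of the paired annotation entries of Gm23925 (left) and Rmrp (middle), stacked, and the TPM of the Rmrp lincRNA entry in both quantifications (right). The Gm23925 reads move between entries from library to library, the Rmrp lincRNA entry holds 19.4% to 20.8% of the pair's counts, and the Rmrp lincRNA entry is higher in the second quantification in each library.

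2900097C17Rik is Norad, a cytoplasmic RNA that binds Pumilio proteins, repressors of mRNA, in many copies and protects the stability of chromosomes. It lies on chromosome 2 from 156388065 to 156392979 (minus strand) and stood at 33.0, 48.8, 34.3 and 35.7 TPM (mean 37.9 ± 7.34, SD, n = 4). Library 2 was the highest in this first quantification. The difference came from the short form 2900097C17Rik-201 (339 bases), listed at 0, 14.2, 1.39 and 2.23 TPM. The full-length form 2900097C17Rik-202 (4915 bases) was even, at 33.0, 34.6, 32.9 and 33.5 TPM. The second quantification listed the short form at 0 in each library and the full-length form at 35.7 to 39.7 TPM. Gm7292 on chromosome 6 (117716342 to 117718868, plus strand), with 85.9% of its 31-base words in Norad, stood at 6.85, 4.69, 9.00 and 4.21 TPM, and which of these reads came from Norad was not tested.

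Both genes carry copies of the Pumilio element TGTANATA. It occurred 11 times in 2900097C17Rik-202. Of 8905 transcripts of 4000 to 6000 bases, 3 held at least as many, this transcript included (0.0337%), and the median was 0. It occurred 9 times in Gm7292-201 (2527 bases), a number that 1 of 18247 transcripts of 2000 to 3000 bases reached, namely Gm7292-201 itself. Only the transcript strand was searched, since the element acts in RNA. A stretch that holds a neighbouring pair of elements, in capitals, is shown for Norad at chr2:156390502-156390558 (mm10, minus strand) and for Gm7292 at chr6:117718737-117718793 (mm10, plus strand); the stretches are identical.
2900097C17Rik: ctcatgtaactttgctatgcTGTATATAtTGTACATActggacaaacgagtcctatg
Gm7292: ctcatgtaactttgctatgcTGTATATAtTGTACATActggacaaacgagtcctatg

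Among the listed Norad partner genes, Pum2, a Pumilio repressor, stood at 93.6 ± 7.58 TPM (SD, n = 4). The member itself, at 37.9 TPM, lay between its partners Rbmx (26.4 TPM) and Top1 (43.0 TPM).

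Among the members, 6 hold or adjoin microRNA hairpins on the same strand, with 14 hairpins in all within the gene or 2000 bases of it. Mir142hg, the primary transcript of miR-142, a microRNA of blood cells, stood at 70.7, 74.6, 64.3 and 70.4 TPM (mean 70.0 ± 4.28, SD, n = 4). Its only annotated transcript has 269 bases and received 194 counts on average, and the second quantification listed it at 5.58 to 15.5 TPM. Mir17hg, the host of the miR-17-92 cluster that promotes lymphocyte growth, stood at 8.30, 7.85, 6.97 and 6.94 TPM (mean 7.51 ± 0.672, SD, n = 4) and holds 6 hairpins on chromosome 14 between 115043671 and 115044506. The libraries of each host lay close together, and neither was called variable.

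Of the other hosts, 6720427I07Rik holds 3 hairpins on chromosome 13 of let-7, a family that restrains growth genes, and stood at 5.09 ± 0.516 TPM (SD, n = 4). Gm27019 overlaps the edge of the miR-29b-1 hairpin on chromosome 6 and ends 345 bases from that of miR-29a, at 19.5 ± 1.16 TPM. E130102H24Rik holds the hairpin of miR-101a, at 5.20 ± 0.909 TPM, and 2900076A07Rik that of miR-1839, at 12.6 ± 0.791 TPM (SD, n = 4 each).

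The mature sequences, from RefSeq (GRCm38.p6), are shown for the microRNAs whose seed is shared within a host, and for miR-142a-3p. The seed, bases 2 to 8, is in capitals and sets which mRNAs are bound.
mmu-miR-142a-3p: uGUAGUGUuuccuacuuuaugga
mmu-miR-17-5p: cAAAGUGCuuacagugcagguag
mmu-miR-20a-5p: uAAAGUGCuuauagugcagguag
mmu-miR-19a-3p: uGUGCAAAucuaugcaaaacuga
mmu-miR-19b-3p: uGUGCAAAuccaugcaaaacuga
mmu-let-7a-5p: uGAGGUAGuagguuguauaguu
mmu-let-7d-5p: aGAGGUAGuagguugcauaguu
mmu-let-7f-5p: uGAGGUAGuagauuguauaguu
mmu-let-7a-1-3p: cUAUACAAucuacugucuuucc
mmu-let-7f-1-3p: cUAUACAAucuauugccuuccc
mmu-miR-29a-3p: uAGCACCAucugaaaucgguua
mmu-miR-29b-3p: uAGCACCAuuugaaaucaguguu

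Thus miR-17 and miR-20a share the seed AAAGUGC, miR-19a and miR-19b share GUGCAAA, the 5p arms of the let-7 hairpins share GAGGUAG, the 3p arms of let-7a-1 and let-7f-1 share UAUACAA, and miR-29a and miR-29b share AGCACCA. The tables quantify the host genes, and the mature microRNAs were not analysed here. The 7 listed genes of microRNA processing were all tested; 0 were called by edgeR and 0 had an unadjusted p under 0.05, which the background of 1.4% and 4.6% would also give for so few genes. Drosha, which cuts the hairpin from the host, stood at 10.8 ± 0.347 TPM and Dicer1, which makes the mature form, at 36.3 ± 3.68 TPM (SD, n = 4 each).

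1700020I14Rik, named Oip5os1 in RefSeq and known as Cyrano, carries a site with extended pairing to miR-7 and directs the decay of that microRNA. It stood at 15.24, 16.40, 14.98 and 16.91 TPM (mean 15.9 ± 0.922, SD, n = 4), and its transcript of 8300 bases held 70.1% ± 2.37 of the level. The seed match of miR-7a occurred at 2 places of the gene, 1 of them in both transcripts, and the other was preceded by 13 further bases that pair with the rest of the microRNA. That site is at chr2:119602135-119602162 (mm10, plus strand); capitals mark the bases that pair, and in the microRNA (RefSeq) the seed.
1700020I14Rik: gaACAACAAAATCACcaatGTCTTCCat
mmu-miR-7a-5p: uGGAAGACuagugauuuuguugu

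Lncpint, a target of p53 described as restraining growth, was the highest of the remaining known lincRNAs. It spans 137924 bases of chromosome 6 (31082565 to 31220488, minus strand) and stood at 250, 262, 329 and 335 TPM (mean 294 ± 44.5, SD, n = 4). Libraries 3 and 4 were the highest, a pair seen in the values and not set by the design. The spread did not pass the test (edgeR, adjusted p = 0.401). The early response genes Fos and Fosb, whose values are given with Gm26551, were also highest in libraries 3 and 4. Nfkbia of the same list was lowest in these libraries, and a link of Lncpint to an early response was not tested. None of the 16 Lncpint transcripts held more than 26.1% of the level.

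Pvt1, downstream of the growth regulator Myc, stood at 9.16, 10.8, 10.6 and 14.2 TPM (mean 11.2 ± 2.13, SD, n = 4), and Jpx, an activator of X inactivation in female cells, at 6.60, 5.37, 5.18 and 4.54 TPM (mean 5.42 ± 0.862). AW112010, an interferon-responsive RNA of immune cells, stood at 58.4, 68.1, 69.2 and 68.8 TPM (mean 66.1 ± 5.19). Library 1 was the lowest for AW112010 and the highest for Jpx. Epb41l4aos stood at 26.2 ± 3.38 TPM and A630023P12Rik at 25.9 ± 0.592 TPM (SD, n = 4 each), and edgeR called none of these genes variable (adjusted p = 1 for each).

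Of the 41 genes found from a list of known long noncoding RNAs, 12 were members, 6 were listed at 0 and 9 lay above 0 and under 1 TPM. Some of the others stayed out by type rather than level: Tug1, annotated as antisense, stood at 41.9 ± 0.434 TPM, and Mirt1, with transcripts of another type, at 16.99 ± 3.62 TPM (SD, n = 4 each). H19, Hotair, Rmst, Bvht, Mirg and Trp53cor1 were the genes listed at 0. Xist, which coats the inactive X in female cells, was listed at 0.01 to 0.04 TPM in these male cells, and Mir155hg, the host of a microRNA induced in activated lymphocytes, at 2.52 ± 0.190 TPM (SD, n = 4).

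Several of the highest members have no known function. Gm2682, on chromosome 15 from 60120540 to 60187408 (minus strand), stood at 204, 186, 213 and 231 TPM (mean 208 ± 18.7, SD, n = 4), rank 317 among all genes. AU020206 stood at 41.5, 45.5, 46.4 and 52.1 TPM (mean 46.4 ± 4.38) and Gm20186 at 76.1, 74.6, 62.1 and 60.5 TPM (mean 68.3 ± 8.15, SD, n = 4 each). Libraries 1 and 2 lay above libraries 3 and 4 for Gm20186, the reverse of Lncpint, and its spread did not pass the test (edgeR, adjusted p = 0.712).

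Transcripts of a gene could be told apart to very different degrees. Of the members, 25 have 1 annotated transcript and 12 have 5 or more; in each of these 12 no transcript held more than 50% of the level. The most even split was that of Pvt1, with 10 transcripts and a largest share of 21.1%, followed by Lncpint with 26.1%, AI480526 with 26.7%, 1300002E11Rik with 29.99% and A630023P12Rik with 33.0%. For AW112010 the gene level was similar in both quantifications (66.1 and 78.2 TPM) but the form was not: AW112010-202 held 91.5% ± 7.41 in the first (SD, n = 4) and AW112010-201 held 97.7% in the second.

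**Figure D3:**
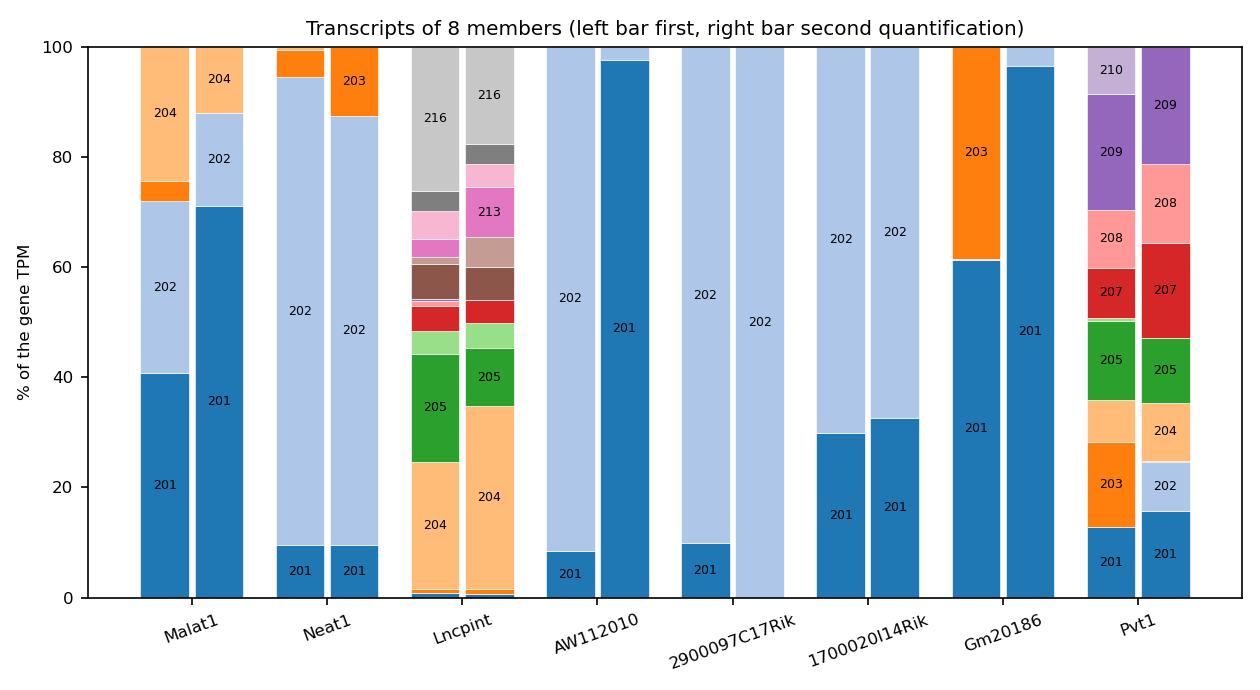
Share of the gene's TPM (%) held by each annotated transcript of 8 members, as the mean of 4 libraries, with the first quantification on the left and the second on the right of each pair; numbers are the last part of the transcript name. The long form Neat1-201 keeps its share (9.59% and 9.57%), Malat1-201 goes from 40.7% to 71.1%, and AW112010 changes from its form 202 to its form 201.

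The second quantification gave levels within 2-fold of the first for 44 of 62 members (71.0%), while this held for 93.2% of the 8682 mouse genes with a mean of at least 5 TPM. It was over 2-fold higher for 12 members and over 2-fold lower for 6. Both members and all such genes were higher on the whole in the second, with median ratios of 1.351 and 1.301. Because the members were chosen on the first quantification, a shift in this comparison is partly fixed by the choice.

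Members whose sequence recurs elsewhere were more often outside this 2-fold range. The share of a member's 31-base words that also occur in another gene's transcripts, on the same strand, was under 5% for 35 members, 5% to under 50% for 16 and at least 50% for 11. Levels were within 2-fold for 32 of the 35, 11 of the 16 and 1 of the 11. This sharing moved with the difference between quantifications, and its part in it was not tested.

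The 5 members with the largest log2 ratio (1 TPM added) were, in either direction, Gm23925, Gm12840, Gm44174, Gm10076 and Gm49207. Gm12840 stood at 12.1 ± 1.10 TPM in the first and 562 TPM in the second quantification, and Gm20186 at 68.3 and 555 TPM; 59.8% of the words of Gm12840 occur in Gm20186. Gm10076, which RefSeq lists as a pseudogene, has 82.2% of its words in the ribosomal protein gene Rpl41, which stood at 1536 TPM, and was listed at 42.1, 27.4, 21.1 and 20.9 TPM in the first quantification and at 0 in the second. Gm44174 shares no 31-base word and was listed at 47.56, 51.04, 32.20 and 25.01 TPM in the first and at 0 in the second. Gm49207 has 83.1% of its words in Ahsa1 and Gm45733 has 79.9% in Baz2a, both coding genes at 34.8 and 39.2 TPM, and in the second quantification these members were at 0 and 0.137 TPM.

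**Figure D4:**
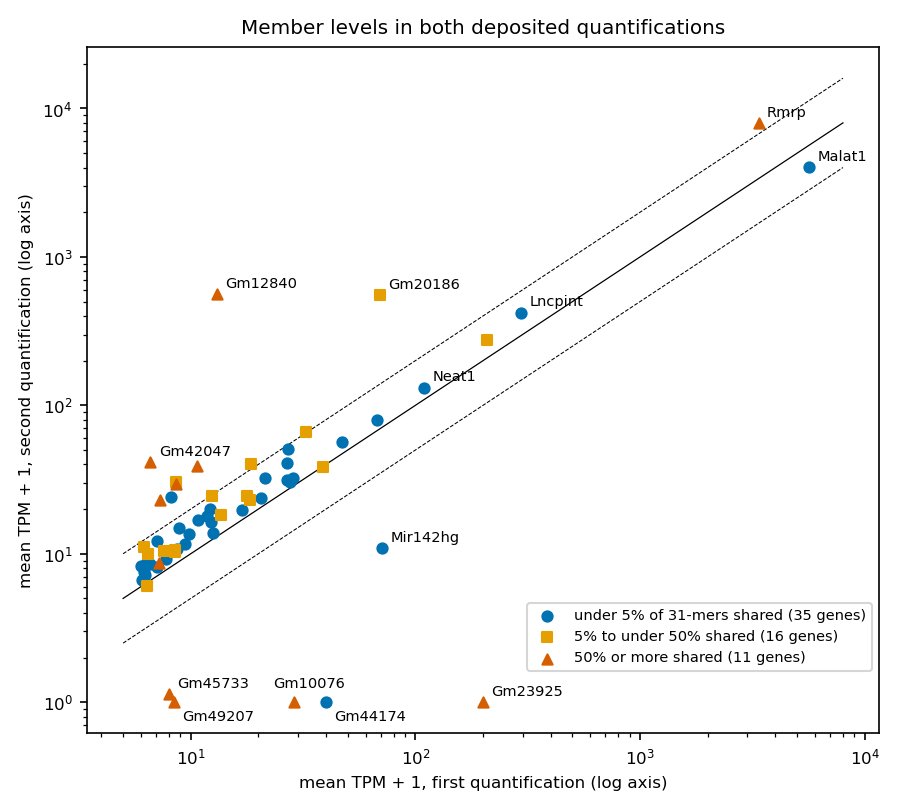
Mean TPM + 1 of each member in the first (horizontal) and second (vertical) quantification, both on log axes, by the share of 31-base words found in other genes; the solid line marks equal values and the dashed lines a 2-fold difference. Of the members sharing under 5%, 32 of 35 lie between the dashed lines, against 1 of 11 sharing 50% or more.

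Variation between libraries was tested against the trend of all genes, a measure that the choice of members did not use. It asks whether the libraries differ in a member beyond what is usual at its level. Of 13118 genes tested, 183 (1.4%) were called at an adjusted p of 0.05. Of the members, 60 passed the filter on low counts, Gm23925 and Gm49207 did not, and 1 was called, Gm26551, a share close to that background. At an unadjusted p under 0.05 there were 8 members (13.3% of those tested) against 4.6% of all genes: Gm26551, Gm10076, Gm2682, Gm15675, Lncpint, Gm20186, Gm43698 and Gm39323, the last named after the values were seen like the others not called. The median SD of log2 CPM (counts scaled to the library total, prior count 2) was 0.16 over the members tested and 0.12 over all genes tested, and this SD falls with level, as the plot of spread against level shows. The goodness-of-fit statistic, which is taken against the trend with level, had a median of 1.95 over the members tested and 1.47 over all genes tested.

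Gm26551, a spliced RNA of 2432 bases whose gene on chromosome 11 (51949882 to 52269514, minus strand) starts inside Tcf7, stood at 22.7, 21.7, 28.0 and 33.8 TPM (mean 26.6 ± 5.57, SD, n = 4). Libraries 3 and 4 were the highest, a pair seen in the values and not set by the design. The highest library was 1.56 times the lowest (edgeR goodness-of-fit test, adjusted p = 0.0497). Tcf7, a transcription factor of T cells, was even at 440, 436, 432 and 414 TPM, and Ube2b, within the span of Gm26551 on the same strand, stood at 69.4, 67.3, 58.2 and 61.4 TPM. Library 4, the highest for Gm26551, also held the most B cell and erythroid RNA (392 and 636 TPM summed). In library 3, the second highest, the same lists summed to 182 and 17.4 TPM. Libraries 3 and 4 were also the highest for Fos (57.6, 83.1, 117 and 141 TPM) and Fosb (24.5, 34.4, 42.9 and 65.0 TPM), transcription factor genes of the early response to stimulation, which edgeR called variable (adjusted p = 2.31e-19 and 5.42e-19). Of 19 tested genes on the early response list, 4 were called (Fos, Fosb, Hspa1b and Nfkbia), against 1.4% of all genes. Hspa1b was highest in library 3 (0.58, 2.80, 3.51 and 2.53 TPM). Nfkbia went the other way from Fos and was lower in libraries 3 and 4 (129, 132, 110 and 92.0 TPM). Jun, Jund, Egr2, Ier5 and Klf6 were also lowest in library 4. Egr1, Dusp2, Nr4a1, Zfp36 and Cd69 of this list were, like Fos, highest in libraries 3 and 4, and were not called. The list's summed level was 1665, 1871, 1962 and 1860 TPM. The part of other cells or of an early response in the result was not tested. In bulk RNA, fewer cells of a type and less RNA per cell cannot be told apart. The call lies at the threshold: by the edgeR test it was lost with DESeq2 size factors (adjusted p = 0.0533), without a filter (0.0888), with spike-in totals (0.157), in the second quantification (0.220), with a common dispersion (0.373) and without library 3, 1, 4 or 2 (0.0955, 0.186, 0.598 and 0.734).

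Under other settings 0 to 2 members were called, the 2 with a common dispersion (of 60 tested) or with at least 50 counts in every library (of 54). The share of all tested genes called was 0.938% with spike-in totals, 1.18% without a filter, 2.69% with a common dispersion, 1.23% in the second quantification and 1.17% as DESeq2 dispersion outliers. It was 0.882%, 0.97%, 1.1% and 0.873% without library 1, 2, 3 and 4. With the other scalings and filters it was 1.37% to 1.4%.

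**Figure D5:**
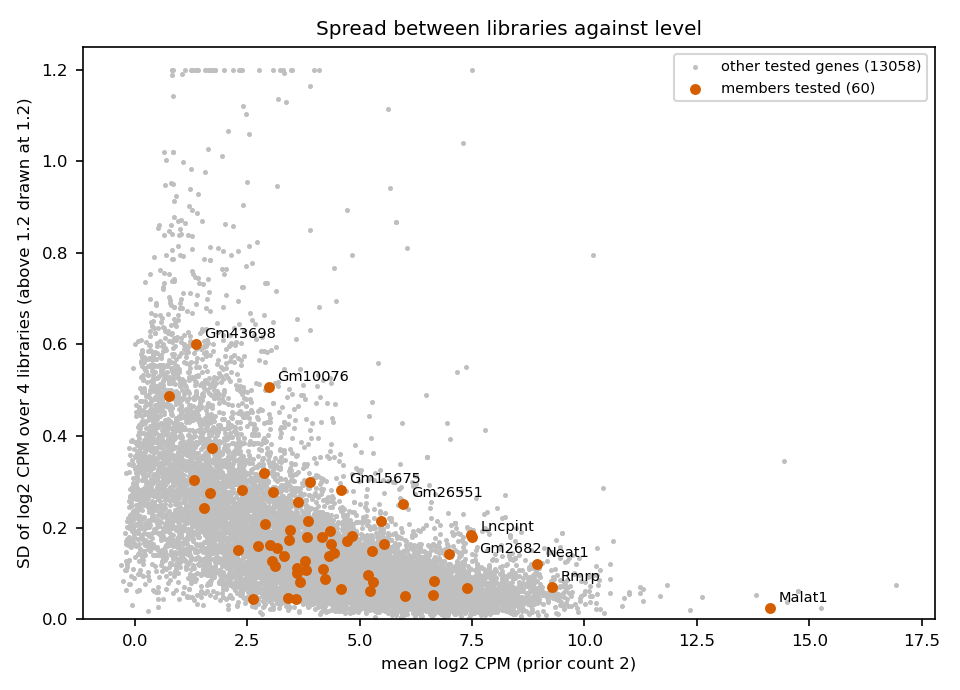
SD of log2 CPM over 4 libraries against the mean, for the 13058 other tested genes (grey) and the 60 tested members (orange). The members lie within the cloud of other genes, with Malat1 at the far right and low, and Gm26551 near the upper edge for its level.

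The steadiest members were 2310001H17Rik at 10.5, 10.9, 10.9 and 10.9 TPM (coefficient of variation 1.91%), A630023P12Rik at 26.6, 26.0, 25.4 and 25.5 TPM (2.29%) and Malat1 (3.60%). The most variable were Gm23925 (131%), Gm49207 at 5.74, 3.66, 17.7 and 2.57 TPM (94.1%) and Gm43698 at 12.3, 5.67, 8.62 and 4.87 TPM (42.9%). Gm49207 received 22.0 counts and Gm43698 41.5 counts on average, so counting error is large for both. Without library 1 the mean of Gm23925 was 82.8 TPM in place of 199, and without library 3 that of Gm49207 was 3.99 TPM in place of 7.42, under the threshold. Over all members the median coefficient of variation was 11.2%, with 28 members under 10% and 8 over 25%. Library 4 was the highest for 28 members (45.2%), and for 39.5% of all tested genes. It was also the lowest for 18 members (29.0%), against 16.4% of those genes. Library 1 was the highest for 25.8% of members against 15.5% of those genes. The shares were 19.4% against 20.3% for library 2 and 9.68% against 24.7% for library 3. These shares were not tested.

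The position of the genes was not part of the choice. The nearest start of a protein-coding gene lay at a median of 25965 bases from the start of a member, and at 71017 bases from the starts of the 5774 other lincRNA genes. That coding gene was expressed at 10 TPM or more for 28 members (45.2%) and for 26.1% of the others. A coding start lay within 5000 bases of 11 members (17.7%) and of 10.6% of the others. A start within 1000 bases in divergent orientation was found for 3 members (4.84%) and for 4.23% of the others, which are similar shares. Members also had longer transcripts (median of the longest form 1981 against 973 bases), and the longest form had a single exon in 16 members (25.8%) and in 6.43% of the others. No test was made of these shares, because neighbouring genes are not independent.

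Some neighbours are genes that define T cells, and how often this holds for other lincRNA genes was not counted. Gm44174, on chromosome 6 from 71353035 to 71373284 (plus strand), ends 142 bases before the start of Cd8a, the coreceptor of cytotoxic T cells, which stood at 123 ± 9.14 TPM (SD, n = 4). Cd8a was at 128, 127, 109 and 126 TPM, an order that differs from that of Gm44174. Gm39323 starts 2325 bases from Thy1, a surface protein of T cells, in divergent orientation; it stood at 4.70, 3.84, 5.49 and 6.66 TPM and Thy1 at 274 ± 3.94 TPM. 2310001H17Rik lies 28599 bases downstream of the activation antigen Cd69 (79.0 ± 7.44 TPM), and Pvt1 lies 47611 bases downstream of Myc (37.3 ± 3.61 TPM, SD, n = 4 each).

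Other members lie just past the end of a coding gene on the same strand. AI504432 begins 1433 bases after Kcna3, the main potassium channel of T cells, and stood at 11.5 ± 0.565 TPM, against 22.6 ± 1.90 TPM for Kcna3. 4833403J16Rik begins 1127 bases after Gimap5, a gene of lymphocyte survival, and stood at 11.4 ± 1.34 TPM, against 52.1 ± 4.89 TPM for Gimap5 (SD, n = 4 each). Whether these reads continue the upstream transcript was not tested. 5031425E22Rik starts 172 bases from Kmt2e, AI480526 527 bases from Setd1b and Gm20186 372 bases from Lsm8, in divergent orientation each, and edgeR called none of the neighbours named here variable (adjusted p = 1 for each).

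At the edge of the threshold, the members just inside were Gm39323 (5.17 ± 1.199 TPM), 6720427I07Rik (5.09 ± 0.516) and Gm16973 (5.01 ± 0.733), and the genes just outside were Gm5914 (4.83 ± 2.01), Gm49797 (4.49 ± 0.724) and Ftx (4.47 ± 0.258, SD, n = 4 each). The SDs are larger than the distances between neighbours in this order. The number of genes past 5 TPM depends on the scale: it was 174 in the second quantification, and 141 when TPM was rescaled without small structural, mitochondrial and suspected ribosomal genes, which took 29.6% to 31.3% of counts in the first.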

How the data were processed

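Total RNA of 4 libraries of 1 group was analysed. The deposited notes name the mouse build mm10 and GENCODE M21; aligner and quantifier were not given in the sources used here. Expected counts, deposited by the authors, are estimates from an alignment to the transcriptome, unnormalized. The authors' deposited TPM and FPKM divide these by effective length and depth, and the deposited percent values give a transcript's share of its gene. The second deposited table holds estimated counts and TPM from 1 read file per library, which were summed per gene. Short abundant RNAs lower the TPM of other genes, and reads with CAST/EiJ variants could be lost.

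Expected counts were rounded and tested with edgeR 4.0.16 (R 4.3.3): intercept only, TMM, trended dispersion, filterByExpr, goodness-of-fit test per gene, Benjamini-Hochberg at 0.05 over all tested mouse genes. The test was tested on simulated data. Spike-ins and 26248 numeric identifiers that name no gene (at most 8.75e-05% of counts) were left out. A floor of 3 counts is 0.190, 0.174, 0.183 and 0.206 CPM in libraries 1 to 4; the labels mention no molecular identifiers, so PCR copies may be counted, and these floors reflect counting error alone. Sequence sharing was counted as 31-base words of M21 transcripts. No source used here states whether counting used strand, so antisense reads may be mixed in. RefSeq (GRCm38.p6) matched 34 members by symbol or synonym.

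Members and lists were chosen with earlier results of these data known. Named genes were the 12 highest members, those called variable, microRNA hosts, known lncRNAs, the edge of the threshold, the 3 highest and 3 lowest in variation, the 5 most different between quantifications, up to 5 with evenly split transcripts, and their nearest coding genes. Some other named members, such as AI504432, 4833403J16Rik and 5031425E22Rik, fall outside this naming. Alternatives were DESeq2 1.42.0, other scalings and filters, the second quantification and leaving out each library. Replicate numbers pair nothing in 1 group. Python 3.11.15 and pandas 2.3.3 were used. A result of 1 listed gene, and the summary of its list, are not reported here.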

Additional observations from a re-analysis of the deposited data

Results flagged for a closer look

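Over the 62 members, 2 had a library whose gap to the nearest other library was above the 95% critical share of the range (Dixon's rule for 4 samples), and chance alone gives about 1 in 20. AW112010 was lowest in library 1 at 58.39 TPM, with the other libraries at 68.1 to 69.2 TPM. 2310001H17Rik was lowest in library 1 at 10.47 TPM, with the others at 10.86 to 10.90 TPM, a range that is small beside the spread of other members.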

How the results depend on the processing

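The number of members called variable was 1 in the main setting and was 0 with DESeq2 size factors (8 members at an unadjusted p under 0.05), 0 with spike-in totals (7 members) and 0 by DESeq2's dispersion outliers. It was 2 with at least 50 counts in every library (Gm10076 and Gm26551) and 2 with a common dispersion (Gm10076 and Gm43698). Leaving out each library gave 0 to 1, with Gm49207 as the call without library 4. Without a filter the call was Gm23925 and in the second quantification Rmrp, so the called gene differed where the count did not. Gm26551 kept its call in 3 of the other settings. The number of members was 174 in the second quantification, 141 with TPM rescaled, 139 at 2 TPM, 32 at 10 TPM and 47 when each library had to reach 5 TPM, and 60 to 63 with a library left out. The share of counts was 2.16% in the second quantification against 2.07%, and the median level, taken in each library and then averaged, 17.1 against 10.6 TPM. Of the member levels, 57 moved by more than 1 SD in the second quantification. On leaving out a library, Gm23925 (82.8 against 199 TPM, without library 1) and Gm49207 (3.99 against 7.42 TPM, without library 3) moved by over 1.5 times. FPKM gave the same 12 highest members, by its construction. The cause of these differences was not tested. No paired analysis was possible because there is 1 group. Depth limits the members with under 50 counts on average, 5 in number.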

Other observations

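RefSeq gives other types to some members. Of the 34 matched, 28 are lncRNAs there, 4 protein-coding genes, 1 a pseudogene (Gm10076) and 1 the RNA of RNase MRP. The coding entries are 1810058I24Rik, known to encode a small mitochondrial protein, at 22.9, 28.0, 25.6 and 26.8 TPM, Tmem250-ps at 9.21, 8.76, 7.41 and 8.52 TPM, Gm46430 at 7.28, 7.94, 7.07 and 8.27 TPM, and Gm37494 at 7.52, 9.53, 8.20 and 9.94 TPM. By counted reads, 11 members had at least 1000 on average, among them Gm26853 with 2027 and AU020206 with 1614.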
